A study of Homo sapiens with 6 samples.

Results

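The 19p12 band of human chromosome 19 holds a dense array of KRAB zinc finger genes, and 33 genes of it were followed here between mesodermal progenitors and the human embryonic stem cells (hESC) from which they had been made. A probe set was taken as a member when the array annotation gave it to a listed gene alone, or only to listed genes together. This rule found 56 probe sets for 25 of the 33 genes, among 54613 probe sets on the arrays without the array controls. One of the 56, 222136_x_at, was shared by ZNF729 and ZNF43, and ZNF729 had no other. For 8 genes (ZNF98, ZNF676, ZNF714, ZNF724, ZNF726, ZNF728, ZNF730 and ZNF737) the annotation gave no probe set, and they are not analysed here. A further probe set, 208542_x_at, was annotated to ZNF208 together with ZNF595 and ZNF718, which are not on the list, and was left out.

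KRAB zinc finger proteins bind DNA through a row of zinc fingers and repress through the KRAB domain, which recruits the scaffold protein TRIM28. TRIM28 in turn brings the histone methyltransferase SETDB1, HP1 proteins and other silencing factors to the bound site. Many of these proteins recognise transposable elements, and the genes of 19p12 multiplied by tandem duplication in primates. ZNF91 is known to repress SVA elements and ZNF93 to repress LINE-1 elements of primates, and both have been studied in pluripotent cells.

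The progenitors came from H9, an established hESC line, after mesoderm induction in Stemline II medium with BMP4, activin A, VEGF and FGF2. They had been sorted on day 3.5 as cells without CD326 (EPCAM) and with CD56 (NCAM1), and the other group was undifferentiated H9 cells. Each group had 3 arrays, no unsorted cells of day 3.5 were measured, and a single line was used. Levels are given as log2(intensity + 16) after quantile normalization, and a log2 change is the progenitor mean minus the hESC mean on this scale, which understates the change of low values. A probe set was called at a Benjamini-Hochberg adjusted p under 0.05 in limma, adjusted over all 54613 probe sets. Nothing in the labels ties the arrays to separate cultures. The p-values therefore cover the spread among these arrays alone, and that spread may be technical.

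The sort antigens differed between the groups in the direction of the sort. NCAM1 spanned 10.15 to 10.53 on progenitor arrays and 6.67 to 6.89 on hESC arrays. EPCAM spanned 9.14 to 9.47 on progenitor arrays and 11.65 to 11.74 on hESC arrays. All 10 mesoderm markers were called higher, 8 of 9 pluripotency markers were called lower, and 9 of 18 endothelial and blood markers were called higher with 1 lower. Of 5 endoderm markers 2 were higher and 1 lower, and of 6 neuroectoderm markers 1 was higher and 1 lower. Progenitor array 1 stood apart from progenitor arrays 2 and 3 in the median level of the pluripotency markers (9.36, against 8.42 and 8.46). The summed intensity of these markers differed less (9901, against 9420 and 9446). The summed intensity of the neuroectoderm markers was 1297 on progenitor array 1, against 709 and 733 on progenitor arrays 2 and 3 and 1329 to 1477 in hESC. The summed intensity of the endothelial and blood markers was 13567 on progenitor array 1, against 7019 and 7327 on progenitor arrays 2 and 3 and 5125 to 6940 in hESC. Between progenitor arrays 2 and 3, 39 probe sets lay more than 2-fold apart, against 365 and 433 between progenitor array 1 and the other two. The ratio of the 3′ to the 5′ actin control was 1.34 to 1.44 on progenitor arrays and 1.46 to 2.13 on hESC arrays. The part of these differences between arrays in the results below was not tested.

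More zinc finger probe sets of 19p12 were lower than higher in the progenitors. Of the 56, 26 fell, 9 rose and 21 did not pass the test, where 40.2% of all probe sets were called in either direction, and the median log2 change was -0.26 against 0.006 for all probe sets. The share that fell was 46.4%, against 20% of all probe sets tested (percent called lower), and the share that rose was 16.1%, against 20.3% of all probe sets (percent called higher). The 3 arrays of each group did not overlap for 39 of the 56 probe sets, 28 lower and 11 higher, where 51.2% of all probe sets did not overlap, 25.1% lower and 26.1% higher. Decreases of 1 or more on the log2 scale were called for 11 members (19.6%, against 7.94% of all probe sets) and increases of that size for 2 (3.57%, against 6.79%).

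These counts moved with the scaling of the arrays. The biotin hybridization controls bioB, bioC and bioD, at mean log2 intensities of 9.52 to 9.74 on the progenitor arrays and 9.99 to 10.26 on the hESC arrays, put the median change of all probe sets at 0.214 when the arrays were scaled on them. The median of the members was then 0.03, with 18 called higher and 15 called lower (32.1% and 26.8%). Of all probe sets, 35.9% were then called higher and 11.2% lower. Of the 26 decreases, 15 kept their call under this scaling and none was called in the opposite direction, and all 9 increases kept theirs. Without normalization between arrays the members split into 8 higher and 26 lower (14.3% and 46.4%), against 18.7% and 21.9% of all probe sets. With each array centred on its median they split into 10 higher and 25 lower (17.9% and 44.6%), against 23.1% and 18.1% of all.

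**Figure D1:**
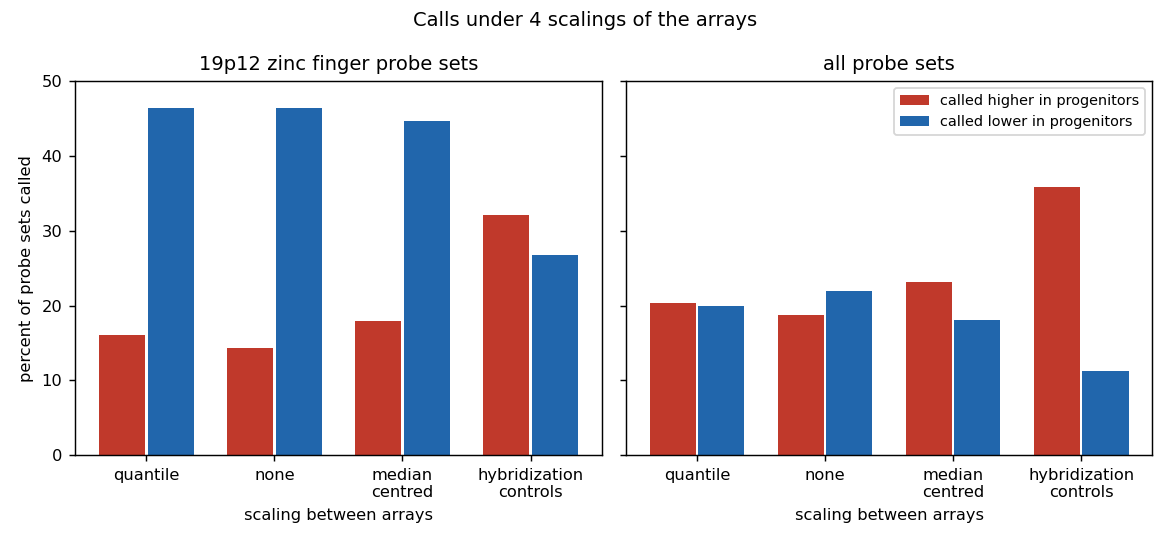
The bars give the percent of probe sets called higher (red) and lower (blue) in progenitors relative to hESC, for the 56 probe sets of 19p12 zinc finger genes (left) and all 54613 probe sets (right), under 4 scalings of the arrays. The share called lower is above the share called higher for 19p12 under all scalings except that on hybridization controls. There, 32.1% of the 19p12 probe sets were higher and 26.8% lower, against 35.9% and 11.2% of all probe sets.

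Counted by gene, the decreases were the larger group as well. Each of the 24 genes with a probe set of its own was represented by the brightest one, and with adjustment over the 19775 genes so represented 14 fell, 3 rose and 7 did not pass. The shares were 58.3% lower, against 21.2% of all genes, and 12.5% higher, against 26.7% of all genes. The genes that rose were ZNF506, ZNF675 and the transcribed pseudogene ZNF826P. In hESC alone, the chosen probe sets of ZNF506 (6.51), ZNF826P (6.88) and ZNF493 (7.7) were below another of the same gene (6.6, 7.22 and 8.16). In progenitors alone, that of ZNF254 (6.08) was below 206862_at (7.52), which rose. When arrays were scaled on the hybridization controls, 7 of the 14 decreases kept their call (ZNF93, ZNF254, ZNF430, ZNF431, ZNF486, ZNF626 and ZNF708), and ZNF681 and ZNF738 stood above 0 without a call.

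**Figure D2:**
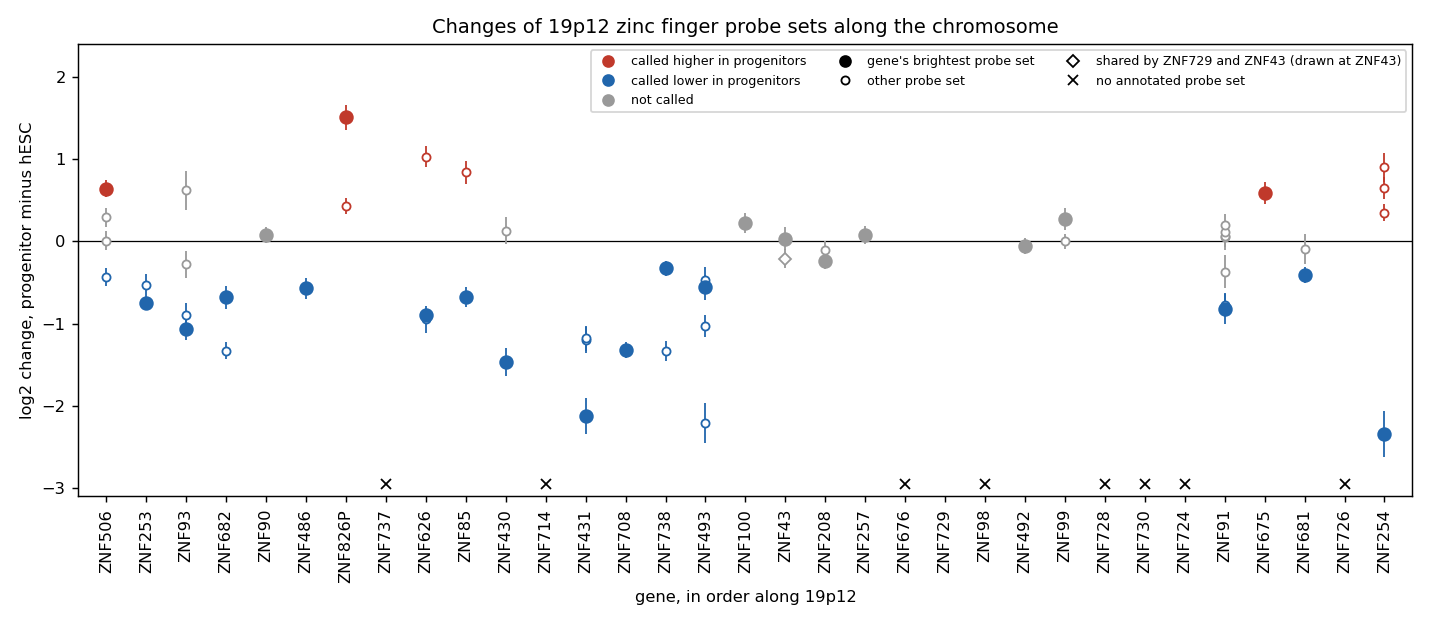
Each point is 1 probe set, with genes in their order along 19p12 on the horizontal axis and the log2 change, progenitor minus hESC, on the vertical axis; bars are standard errors from limma, filled points mark the brightest probe set of a gene and crosses mark genes with no annotated probe set. Blue points (called lower) lie at -0.33 to -2.34 and red points (called higher) at 0.35 to 1.51, and the measured genes from ZNF430 to ZNF493 are all called lower on their brightest probe set.

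ZNF254 had the largest decrease of all members. Its brightest probe set, 1559449_a_at, was at 6.25, 5.92 and 6.08 on progenitor arrays 1, 2 and 3, against 8.54, 8.94 and 7.78 on hESC arrays 1, 2 and 3. All progenitor arrays were below all hESC arrays, and hESC array 3 was the lowest of its group. The log2 change was -2.34 (SE 0.28, n = 3 per group, adjusted p = 0.000497 in limma). The other probe sets of ZNF254 moved the opposite way, however, with increases of 0.90 (206862_at), 0.65 (242602_x_at) and 0.35 (236133_x_at). The last of these lost its call under several alternatives, with an adjusted p of 0.0501 to 0.0828. The files do not say which transcripts of ZNF254 each probe set matches.

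ZNF431, whose mouse counterpart is known as a repressor of the hedgehog receptor gene Ptch1, fell on all 3 of its probe sets. On 232338_at it was at 5.96, 6.15 and 5.84 in the progenitors and at 8.18, 8.52 and 7.62 in hESC, a log2 change of -2.12 (SE 0.22, adjusted p = 0.000298). The groups did not overlap, and hESC array 2 was the highest and array 3 the lowest hESC array. The decreases on 244663_at and 243491_at were smaller, at -1.20 and -1.18. ZNF431 was thus among the genes whose probe sets all passed in the same direction, and its change was -1.70 on 232338_at with scaling on hybridization controls.

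ZNF430, the neighbour of ZNF431 among the measured genes, was at 8.38, 8.37 and 8.33 in the progenitors and at 9.77, 10.20 and 9.52 in hESC on 206829_x_at. The progenitor arrays lay within 0.05 of each other and well below hESC, for a log2 change of -1.47 (SE 0.17, adjusted p = 0.000431). Its other probe set, 238614_x_at, did not pass, at 0.13, and passed as an increase of 0.62 with scaling on hybridization controls. ZNF708 was at 7.13, 7.37 and 7.21 in the progenitors and 8.48, 8.60 and 8.60 in hESC, a change of -1.32 (SE 0.10, adjusted p = 6.42e-05). Here the hESC arrays stood close together, unlike those of ZNF254 and ZNF431.

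ZNF93, the repressor of LINE-1 elements, fell 2.09-fold on its brightest probe set. On 208119_s_at it was at 9.33, 9.60 and 9.69 in the progenitors and at 10.57, 10.77 and 10.47 in hESC, with a log2 change of -1.07 (SE 0.13, adjusted p = 0.000593). The groups did not overlap, and progenitor array 1 was the lowest of all. Its probe set 215758_x_at fell by 0.89, and 1569240_at and 1569241_a_at did not pass, at -0.28 and 0.62. ZNF91, the repressor of SVA elements, had 7 probe sets, of which 2 fell and 5 did not pass. On 206059_at ZNF91 was at 8.77, 8.90 and 8.79 in the progenitors and at 9.50, 10.08 and 9.32 in hESC, a change of -0.82 (SE 0.19, adjusted p = 0.0123), and 236128_at changed by -0.78. The 5 other ZNF91 probe sets had changes of -0.37 to 0.20. They were dimmer, with group means of 4.28 to 6.11, against 8.18 to 9.63 for the 2 that fell. Of these 5, 244259_s_at (-0.37) passed as a decrease with array weights (-0.59, adjusted p = 0.0171) and without hESC array 3 (-0.57, adjusted p = 0.0346). With scaling on hybridization controls neither ZNF91 decrease passed, at -0.32 and -0.25, and ZNF91 on 1562055_at (0.49) and ZNF93 on 1569241_a_at (0.90) passed as increases.

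ZNF826P, the transcribed pseudogene, had the largest increase. On 1560853_x_at it was at 8.15, 8.54 and 8.51 in the progenitors and at 6.78, 6.76 and 7.11 in hESC, a log2 change of 1.51 (SE 0.15, adjusted p = 0.000212). Every progenitor array was above every hESC array, and the second probe set, 1569191_at, rose by 0.43. ZNF506 rose by 0.64 on 238493_at and fell by 0.43 on 221625_at, and its other probe sets did not pass. The ZNF506 decrease lost its call with scaling on hybridization controls (-0.24, adjusted p = 0.175), without progenitor array 3 (0.0557) and without hESC array 1 (0.0605). ZNF506 on 1568720_at (0.29) passed as an increase under 4 alternatives, among them scaling on hybridization controls (0.41) and array weights (0.39). ZNF675, a protein that binds TRAF6 and dampens signalling of the TNF receptor family, rose by 0.59 on its only probe set.

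**Figure D3:**
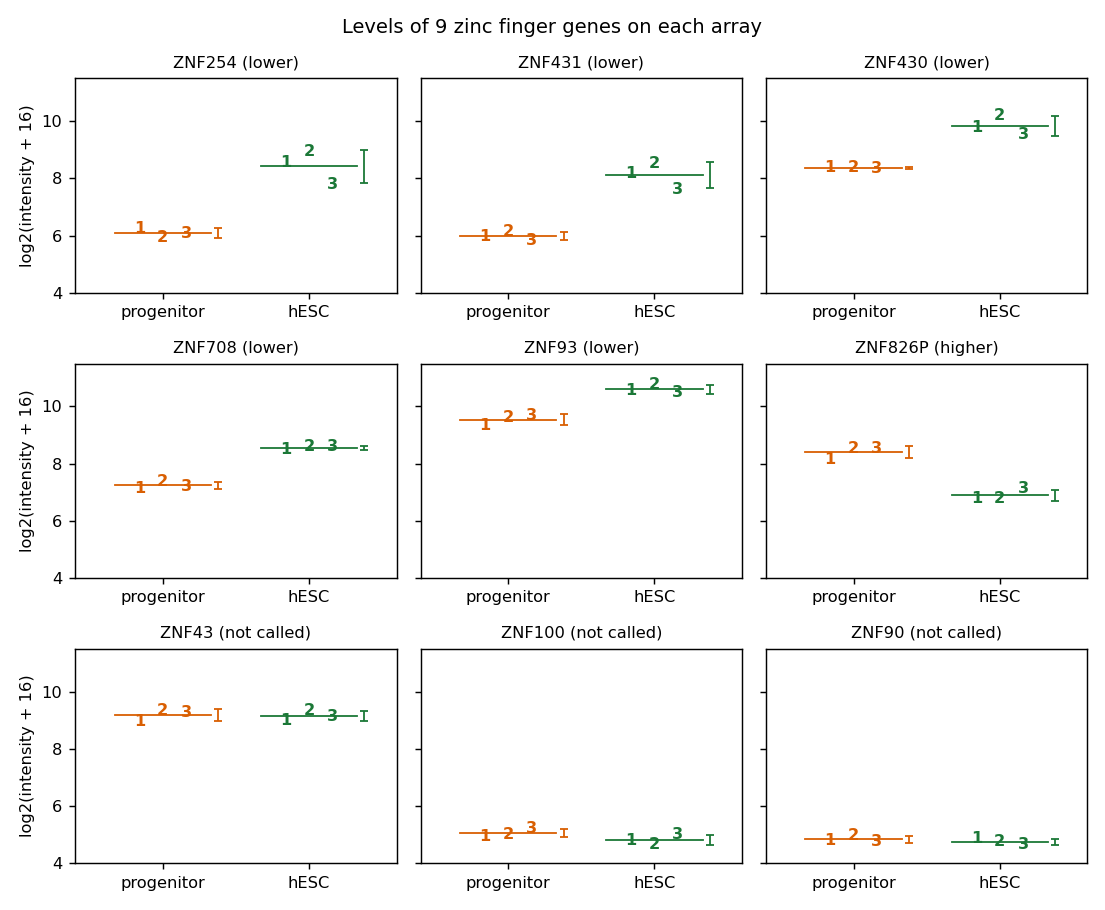
Levels of the brightest probe set of 9 genes, as log2(intensity + 16) after normalization, for progenitor arrays (left, orange) and hESC arrays (right, green); digits are array numbers, lines are means and bars are SD (n = 3). ZNF254, ZNF431, ZNF430, ZNF708 and ZNF93 are lower in progenitors, ZNF826P is higher, and the arrays of the groups overlap for ZNF43, ZNF100 and ZNF90.

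Probe sets of 1 gene did not always move together. Of the 16 genes with several probe sets of their own, 4 had calls in both directions: ZNF254, ZNF506, ZNF626 and ZNF85. The ZNF506 decrease was on a dim probe set (221625_at, mean 4.71 in the progenitors and 5.14 in hESC). ZNF626 fell on 235687_at (7.89, 7.84 and 7.80 in the progenitors, against 8.86, 8.65 and 8.72 in hESC) and rose on 1552643_at (7.39, 7.19 and 7.32 in the progenitors, against 6.22, 6.08 and 6.51 in hESC). The log2 changes were -0.90 and 1.03, with SE 0.09 and 0.13. The remaining probe set of ZNF626, 1559616_x_at, was also called lower, at -0.95 (adjusted p = 0.00258 in limma). ZNF85 changed by -0.68 on 206572_x_at and rose by 0.84 on 1554445_at. ZNF85 did not pass as a decrease with scaling on hybridization controls (-0.21), while its increase did (1.30). Among all 24 genes with a probe set of their own, these 4 stood beside 11 with calls only downward, 2 with calls only upward and 7 with none.

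The genes lie so close in sequence that cross-hybridization between them is a known limit of such arrays, and 21 of the 56 probe sets carry the suffix _x_at that marks probes able to match other transcripts. Of these 21, 10 fell, 4 rose and 7 did not pass. Of the 29 probe sets that end in a plain _at, 13 fell, 5 rose and 11 did not pass. Of the 4 _s_at probe sets, 2 fell and 2 did not pass. The 2 _a_at probe sets were 1 that fell and 1 that did not pass. Among all probe sets of any suffix 20% were lower and 20.3% higher. Without the _x_at and _s_at probe sets the median log2 change of the members was -0.11, against -0.26 with them, and 45.2% fell and 16.1% rose. Of all probe sets left in that setting, 19.6% fell and 17.8% rose, with a median of -0.003. How far transcripts of other zinc finger genes contributed to a value was not tested.

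The other decreases were smaller or concerned a second probe set. ZNF493 fell on all 4 of its probe sets, from -0.47 to -2.21, with the largest change on 240155_x_at, at 5.78, 6.12 and 5.96 in the progenitors and 8.25, 8.61 and 7.63 in hESC. Its brightest probe set, 235604_x_at, changed by -0.56 and lost its call without progenitor array 2 (adjusted p = 0.0644) or 3 (0.0716). The smallest decrease, on 211064_at (adjusted p = 0.0473), lost its call at pseudocounts of 1 and 64, with scaling on hybridization controls (-0.14) and in 5 of the 6 fits that left out an array (all but that without hESC array 2). ZNF682 fell on both probe sets (-1.33 and -0.68), and ZNF253 on both, by 0.75 and 0.53. ZNF738 fell by 1.33 on 241826_x_at and by 0.33 on 229700_at, its brightest, which lost its call in 5 of the 6 fits that left out an array (all but that without hESC array 3, adjusted p 0.0597 to 0.0811). ZNF486 changed by -0.57 and ZNF681 by -0.41 on 1 of its probe sets, the other at -0.09 without passing.

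The spread among the hESC arrays was not the same for all falling members. Of the 26 members called lower, 18 (69.2%) were highest on hESC array 2 and 21 (80.8%) lowest on hESC array 3 among the hESC arrays. Of all probe sets called lower, 50.5% were highest on hESC array 2 and 55.2% lowest on hESC array 3, and the difference between these shares was not tested. ZNF626 on 235687_at, for example, was lowest on hESC array 2. Without hESC array 3 the members split into 9 higher and 27 lower (16.1% and 48.2%), against 20.7% and 19.9% of all probe sets. Without hESC array 2 they split into 10 higher and 25 lower (17.9% and 44.6%), against 18% and 18.4% of all. Without progenitor array 1, which carried more endothelial and blood marker signal, 9 were higher and 24 lower (16.1% and 42.9%), against 18.6% and 17.8% of all.

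Of the 7 genes with no call on any probe set of their own, ZNF43 was well above the bottom of the scale. On 206695_x_at ZNF43 was at 8.94, 9.34 and 9.27 in the progenitors and at 9, 9.34 and 9.11 in hESC, a log2 change of 0.03 (SE 0.14, adjusted p = 0.89), and the groups overlapped. With scaling on hybridization controls it passed as an increase of 0.53 (adjusted p = 0.0244). The probe set shared by ZNF729 and ZNF43 did not pass, at -0.21, passed as a decrease without hESC array 3 (-0.33, adjusted p = 0.0295) and with array weights (-0.25) and passed as an increase of 0.33 with scaling on hybridization controls.

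The other uncalled genes were dim. ZNF100 was at 4.91, 5 and 5.19 in the progenitors and 4.8, 4.65 and 4.99 in hESC (change 0.22, adjusted p = 0.208). ZNF90 was at 4.77, 4.95 and 4.75 in the progenitors and 4.85, 4.74 and 4.64 in hESC (change 0.08, adjusted p = 0.582). An intensity of 1 corresponds to 4.09 on this scale, so these values, like those of ZNF99, ZNF208, ZNF257 and ZNF492, were close to the lowest that the scale can show. Of the 21 members not called, 13 stayed below 5.5 on every array, and at these levels a difference may not have been detectable. Of the 35 called, 3 did: ZNF506 on 221625_at, ZNF486 on 1553901_x_at and ZNF254 on 236133_x_at. Along the chromosome, the measured genes from ZNF100 to ZNF99 had no call between ZNF493 and ZNF91. With scaling on hybridization controls ZNF100 (0.40, adjusted p = 0.0499), ZNF43 and ZNF99 on 1553883_at (0.42, adjusted p = 0.0351) passed as increases, and ZNF99 also with array weights (0.45, adjusted p = 0.0114).

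The promoters are shown because the genes arose by duplication and many of them were lower together. RefSeq promoter sequences (GRCh38.p14, 250 bases before to 50 bases after the annotated start) were at hand for 24 of the 33 genes, 19 of them with a probe set of their own. Over the 276 pairs of these promoters the median identity (1 minus the edit distance over the length) was 77.3%, from 44.3% to 91% for the pair ZNF714 and ZNF431, whereas the median identity of a 19p12 promoter with a promoter of 144 zinc finger genes of other chromosome 19 clusters was 46.3%. Windows of 120 bases just before the start are shown for ZNF43 (not called) and for 5 genes whose brightest probe set fell. These 5 are ZNF431, ZNF430, ZNF93, ZNF254 and ZNF91, and the other probe sets of ZNF254 rose. The windows are read 5′ to 3′ along the gene, with each CCAATCA in capitals. The heptamer is a form of the CCAAT box, the motif bound by the factor NF-Y.
ZNF431 (chr19:21141920-21142039, plus strand): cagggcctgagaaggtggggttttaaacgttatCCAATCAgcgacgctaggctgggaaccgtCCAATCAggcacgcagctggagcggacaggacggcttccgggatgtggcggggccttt
ZNF430 (chr19:21020537-21020656, plus strand): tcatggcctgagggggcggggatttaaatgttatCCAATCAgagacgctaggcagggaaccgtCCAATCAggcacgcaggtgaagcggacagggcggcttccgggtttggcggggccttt
ZNF93 (chr19:19900826-19900945, plus strand): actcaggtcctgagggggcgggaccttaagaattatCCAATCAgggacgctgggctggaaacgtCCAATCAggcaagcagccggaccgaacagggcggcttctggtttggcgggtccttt
ZNF254 (chr19:24087067-24087186, plus strand): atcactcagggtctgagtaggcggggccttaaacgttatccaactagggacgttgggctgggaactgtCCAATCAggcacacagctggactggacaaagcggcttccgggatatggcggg
ZNF91 (chr19:23395472-23395591, minus strand): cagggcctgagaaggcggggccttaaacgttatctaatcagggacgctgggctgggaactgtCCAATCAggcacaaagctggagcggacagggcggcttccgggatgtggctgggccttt
ZNF43 (chr19:21836183-21836302, minus strand): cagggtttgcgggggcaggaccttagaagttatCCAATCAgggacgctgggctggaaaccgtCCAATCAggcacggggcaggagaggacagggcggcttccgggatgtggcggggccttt

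All 24 promoters held CCAATCA, searched on both strands, against 7.28% of 27305 promoters of all genes and 18.8% of those of zinc finger genes in other chromosome 19 clusters. With a median identity of 77.3% between them, the 24 promoters are not independent occurrences of the box. Every match was read along the gene. In 15 promoters the box occurred as a pair, and the starts of the boxes lay 29 bases apart in 13 of them and 28 bases apart in 2. The octamer TGTCACTC was found in 22 of 24 (91.7%), against 8.33% of the promoters of the other chromosome 19 clusters and 1.36% of all promoters. No source outside these promoters is given for the octamer, or for the choice of CCAATCA among forms of the CCAAT box. Where a motif is read from the promoters it is counted in, a high share follows from the choice, so these shares are a description alone. CTTCCGG, an ETS-type box, was in 19 of 24 (79.2%), against 41.7% in the other clusters and 10.7% of all. GGGCGG, the GC box, was in 18 of 24 (75%), against 63.2% in the other clusters and 44.6% of all. TATAAA was in 2 of 24 (8.33%), against 0.694% in the other clusters and 12% of all. No matches of different motifs overlapped. The pair of boxes was present both in genes that fell on their brightest probe set, such as ZNF431 and ZNF430, and in ZNF43, which did not pass. ZNF254 had a single box, and it had the largest decrease on 1559449_a_at but rose on its other probe sets. A match is a description of the sequence and does not show binding.

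**Figure D4:**
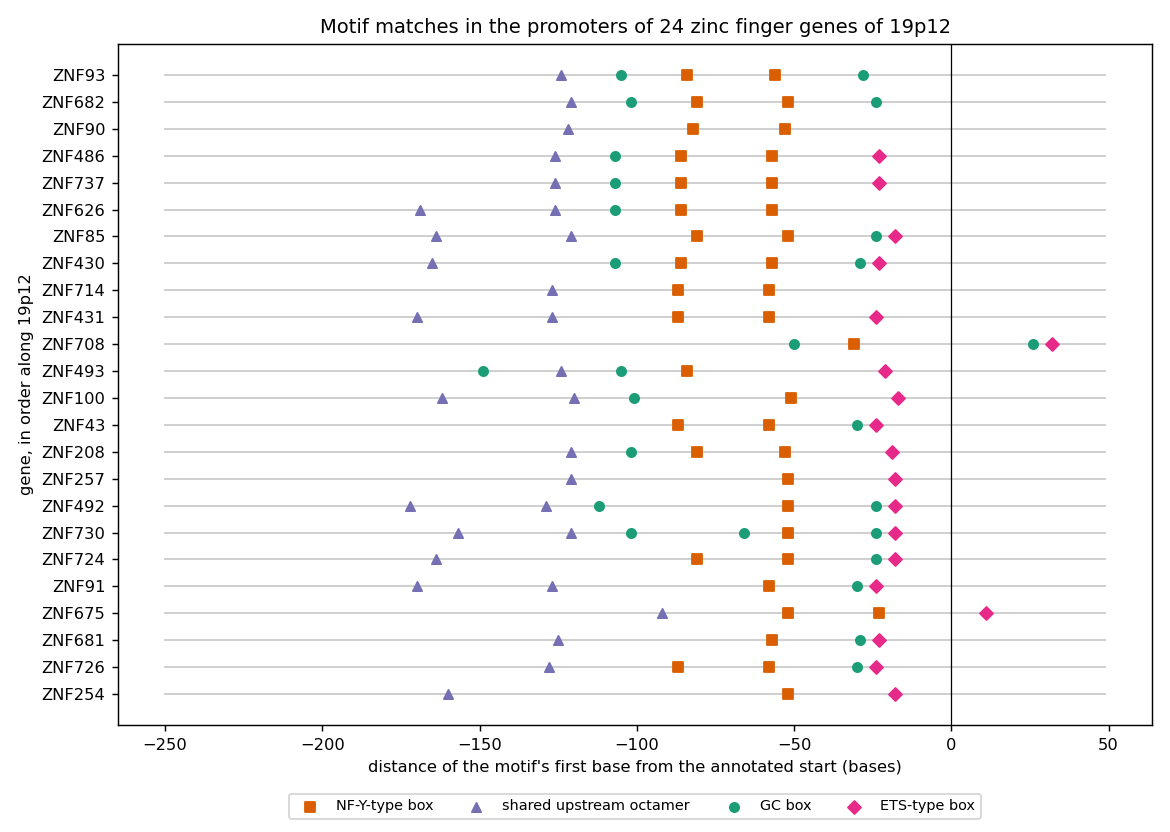
Each row is the promoter of 1 of 24 zinc finger genes, in order along 19p12, and symbols mark the first base of each motif match by its distance in bases from the annotated start; squares are CCAATCA (NF-Y-type box), triangles TGTCACTC, circles GGGCGG (GC box) and diamonds CTTCCGG (ETS-type box). The squares line up in 15 promoters as pairs with starts 28 or 29 bases apart.

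Zinc finger genes of other clusters on chromosome 19 were set beside those of 19p12 with counts alone. Of 278 probe sets for 145 such genes, 70 rose (25.2%) and 58 fell (20.9%), with a median log2 change of 0.075, against 20.3% higher and 20% lower of all probe sets. With scaling on hybridization controls 127 rose (45.7%) and 21 fell (7.55%), against 35.9% and 11.2% of all. ZNF792 (2.4) and ZNF441 (1.76) had the largest increases, and ZNF577 (-2.33) and ZNF701 (-1.85) the largest decreases, and the second probe sets of ZNF441, ZNF577 and ZNF701 did not pass.

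**Figure D5:**
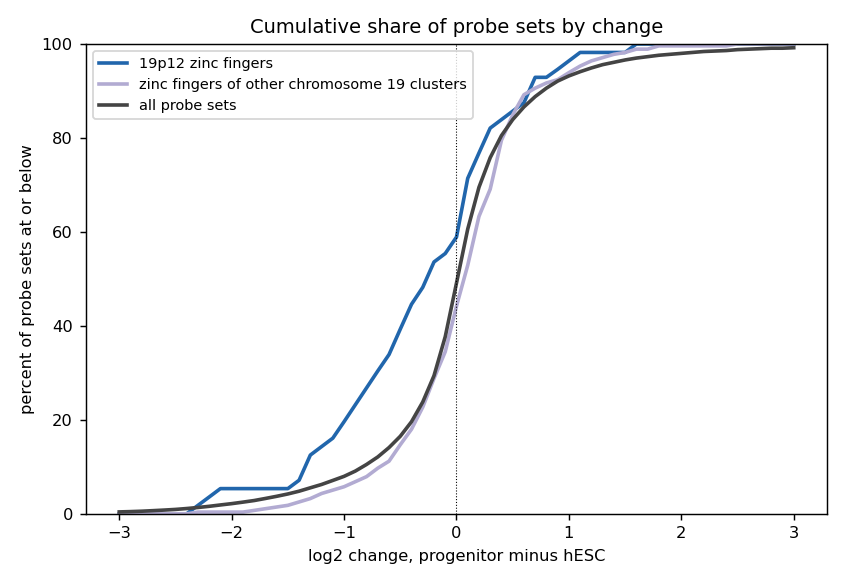
The curves give the percent of probe sets (vertical axis) with a log2 change, progenitor minus hESC, at or below the value on the horizontal axis, for zinc finger genes of 19p12, those of other chromosome 19 clusters, and all probe sets. The 19p12 curve lies to the left of the others over most negative changes, with medians of -0.26 for 19p12, 0.075 for the other clusters and 0.006 for all probe sets.

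Genes of KRAB cofactors and of other heterochromatin factors moved in both directions. Of 84 probe sets for 32 cofactor and heterochromatin genes, 22 rose (26.2%) and 30 fell (35.7%), with a median of -0.082, against 20.3% higher and 20% lower of all probe sets. With scaling on hybridization controls 36 rose (42.9%) and 10 fell (11.9%), against 35.9% and 11.2% of all. TRIM28, the scaffold that KRAB domains bind, was at 11.65, 11.51 and 11.59 in the progenitors and 11.88, 11.83 and 11.78 in hESC, a change of -0.25 (SE 0.09) that did not pass (adjusted p = 0.0603). SETDB1, the methyltransferase brought by TRIM28, differed by 0.18 without passing on 203155_at and rose by 0.76 on 214197_s_at. CHD3, a remodeler of the NuRD complex, rose by 2.17, and CBX5, which encodes an HP1 protein, rose on 5 of its 6 probe sets, by up to 1.23. TRIM33, a relative of TRIM28, fell on all 4 of its probe sets, with changes of -0.41 to -2.19. PPHLN1 (periphilin), a subunit of the HUSH silencing complex, changed by -2.20 on 234459_at, fell on 2 further probe sets (-0.34 and -0.66) and rose by 0.92 on 225073_at.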

How the data were processed

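Levels were measured on 6 one-colour arrays, 3 per group, and the deposited values are linear intensities per probe set, as the values show. How the authors summarised, background-corrected and scaled the probes is not given in the sources used here. Among these values, 7042 (2.147%) equalled 1 and 19 were lower. The 62 array controls were left out, and symbols were updated through gene identifiers (GRCh38.p14).

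Intensities were converted to log2(intensity + 16). Because array medians differed by up to 0.1495 log2 units, more than the allowed 0.1, arrays were quantile-normalized. Tests used lmFit and eBayes of limma 3.58.1 (R 4.3.3), two-sided, with no covariate. On simulated data for this comparison (54613 probe sets) the test recovered 8% of 50 changes of 0.5 on the log2 scale, 88% of those of 1 and 100% of those of 2 and 4, and called 14 of 54413 unchanged probe sets. Almost all simulated probe sets were thus unchanged, whereas 40.2% were called in the data. The adjusted p is stricter where few probe sets change, so these shares can understate the recovery in the data. The number of arrays limits the precision.

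The members, lists and tests were chosen with earlier results of these data known. Genes given per array were those whose brightest probe set was called with a log2 change of 1 or more in either direction, and the 3 brightest uncalled genes. Other probe sets of a gene called in the opposite direction were given a value. Values of ZNF91, ZNF493 and ZNF626 per array, and single values of the remaining genes, were added after they were seen. In the other lists the 2 largest called changes in each direction, TRIM28 and SETDB1 were named. Alternatives covered scaling, pseudocounts of 1 and 64, filters, probe set choice, variance models, a threshold of 0.01, the replicate block and leaving out arrays.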

Additional observations from a re-analysis of the deposited data

How the results depend on the processing

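The median change of the 19p12 probe sets reversed only with scaling on hybridization controls (0.03). It was -0.404 and -0.149 at pseudocounts of 1 and 64, -0.47 and -0.618 without the dimmest 30% or 50% of probe sets, -0.481 with 1 probe set per gene and -0.11 without _x_at and _s_at probe sets. With scaling on hybridization controls, 18 members were higher and 15 lower (32.1% and 26.8%, against 35.9% and 11.2% of all probe sets). The counts were 127 and 21 for the other chromosome 19 zinc finger probe sets, and 36 and 10 for the cofactor probe sets. With 1 probe set per gene the counts were 3 higher and 14 lower of 24 members, and 10 higher and 10 lower of 32 cofactor genes. Of 145 other zinc finger genes 40 were then higher and 41 lower (27.6% and 28.3%). Of all genes 26.7% were higher and 21.2% lower. Without _x_at and _s_at probe sets the counts were 5 higher and 14 lower of 31 members, and 13 higher and 16 lower of 50 cofactor probe sets. Of 214 other zinc finger probe sets 47 were then higher and 40 lower (22% and 18.7%). Of all probe sets left 17.8% were higher and 19.6% lower. Fewer probe sets were tested in these last settings, and shares moved as well. With 1 probe set per gene 58.3% of the members were lower and 12.5% higher, against 46.4% and 16.1% in the main fit. Without _x_at and _s_at probe sets 45.2% were lower and 16.1% higher. How far the fewer probe sets account for the changes of count was not tested. At an adjusted p under 0.01, 37 of the other zinc finger probe sets were higher and 38 lower (13.3% and 13.7%), against 14% of all probe sets in each direction. Leaving out each array gave 8 to 10 members higher and 22 to 27 lower, with medians of -0.316 to -0.188. These were 14.3% to 17.9% higher and 39.3% to 48.2% lower, against 16.3% to 20.7% and 16.4% to 19.9% of all probe sets. For the other zinc finger probe sets it gave 49 to 71 higher and 43 to 53 lower, and for the cofactor probe sets 16 to 22 higher and 25 to 29 lower.

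Single members turned with scaling on hybridization controls: ZNF253 on 206900_x_at (0.004), ZNF738 on 229700_at (0.116), ZNF681 on 238962_at (0.136) and the probe set shared by ZNF729 and ZNF43 (0.333). With the replicate block 8 members were higher and 25 lower (14.3% and 44.6%), against 18.6% and 18.5% of all probe sets. Arrays with the same number did not deviate together (r = -0.026, 0.055 and -0.056 across probe sets), and the labels do not say whether a number marks a shared culture or batch. With progenitor arrays 2 and 3 averaged as 1 array, 8 members were higher and 23 lower (14.3% and 41.1%), against 16.6% of all probe sets in each direction. The causes of these differences were not tested, and values near the bottom of the scale limit what the dim members can show.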
